A study of Mus musculus with 42 samples.

Results

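A striatum in which the phosphodiesterase PDE10A was blocked by a drug was set against a striatum labelled as lacking the enzyme. The comparison takes the 11 arrays titled as wild-type (WT) striatum after a PDE10 inhibitor (6 arrays, numbered 10 to 15) and as PDE10A knockout (KO) striatum after vehicle (5 arrays, numbered 25, 26, 28, 29 and 30), of 42 arrays in the series. The members were chosen by these titles alone, and no measured value was used. Both groups carry the strain label C57BL6, and both give total RNA of snap-frozen, microdissected striatum. WT inhibitor mice carry the drug and an intact gene, whereas KO vehicle mice carry the knockout label and only the vehicle. The sources used here give neither the compound, its dose and the time of dissection, nor the age of the animals or the part of the gene removed, and name no promoter or Cre for the knockout. The other striatal arrays were WT vehicle (5) and KO inhibitor (4), and hippocampus of the same conditions was also measured. A value is the log2 signal of an Affymetrix probe set after RMA normalization, so that a difference of 1 means 2 times the signal, and differences are WT inhibitor minus KO vehicle throughout. The groups share no control arrays. The labels do not state that each array is a different mouse, and the p-values therefore rest on the spread among arrays, part of which may be technical.

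PDE10A breaks down both cyclic nucleotide messengers, cAMP and cGMP, and is concentrated in striatal projection neurons, the GABA neurons that form the direct pathway (dopamine D1 receptor, dynorphin) and the indirect pathway (D2 receptor, enkephalin). cAMP activates protein kinase A, which phosphorylates the transcription factor CREB. CREB binds cAMP response elements in promoters of early response and neuropeptide genes. A drug blocks an enzyme that was present until the dose, while a germline knockout lacks it from development on. Set side by side, the groups ask in which transcripts drug block and labelled loss of the enzyme differ.

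The labels were first set against the data. Pde10a, the targeted gene, had a lowest, median and highest log2 signal of 12.02, 12.55 and 12.70 in WT inhibitor. In KO vehicle 25, 26, 28, 29 and 30 it had 12.37, 12.13, 12.29, 12.71 and 12.25. The groups overlapped, and the difference was 0.14 ± 0.16 (SE, limma, adjusted p = 0.936; n = 6 against 5). The other 4 Pde10a probe sets differed by between -0.15 and 0.37, and none passed. Where on the gene the deletion lies is not known here, and probes that lie elsewhere would still detect transcript, so Pde10a is no check of the labels. A score from 15 other genes of chromosome 17, where Pde10a lies, was therefore computed, from genes chosen for their difference with the knockout label in hippocampus. It is 0 at the median of WT vehicle and 1 at the median of KO inhibitor striatum. KO vehicle 26, 28, 29 and 30 scored between 0.93 and 1.15, and KO vehicle 25 scored 0.05. WT inhibitor 10, 11 and 12 scored 0.27, 0.04 and 0.14, array 14 scored 0.79, and arrays 13 and 15 scored 0.52 and 0.53, barely past the midpoint of 0.5. These 4 arrays (KO vehicle 25 and WT inhibitor 13, 14 and 15) lie on the other genotype's side of the midpoint, and whether arrays were exchanged between groups was not tested. The labels were kept throughout, and an exchange would change what each group is in every value below. Results are given with all arrays first and then without these 4. That alternative was chosen after values had been seen, and it favours genes of chromosome 17.

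**Figure D1:**
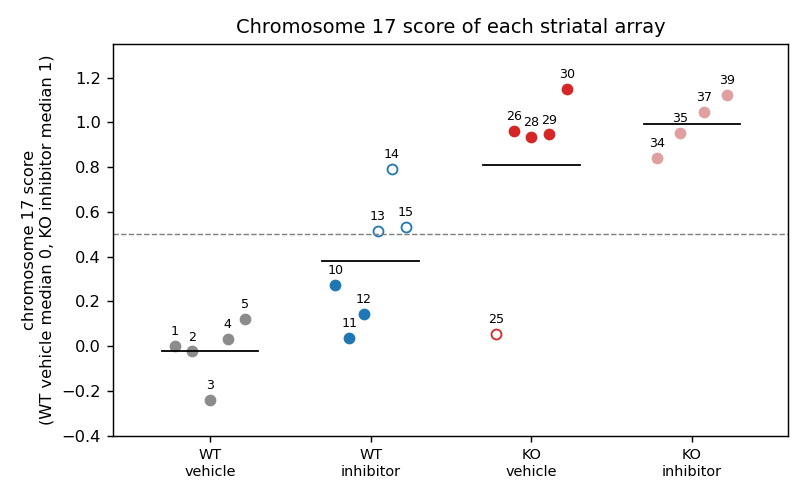
Chromosome 17 score (vertical axis, no unit) of each striatal array by labelled group, where bars are group means and open circles are the 4 arrays left out in the alternative. The array titled KO vehicle 25 (0.05) sits among WT vehicle arrays, WT inhibitor 14 (0.79) lies nearest to the KO arrays, and WT inhibitor 13 and 15 (0.52 and 0.53) lie just above the midpoint of 0.5.

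Tissue markers were those of striatum in all 11 arrays. The 25 shared striatal projection neuron genes averaged between 11.20 and 11.45 per WT inhibitor array and between 10.82 and 11.39 per KO vehicle array. Markers of cortical and hippocampal glutamatergic neurons (10 genes tested), a sign of neighbouring tissue, averaged 6.47 to 7.68 per WT inhibitor array and 7.56 to 7.93 per KO vehicle array. WT inhibitor 13 (7.68) was the one array of its group inside the KO vehicle range. Choroid plexus markers (11 genes) averaged 5.53 to 9.08 and 5.18 to 9.94, so this tissue varied inside either group. The difference between a 3' and a 5' Gapdh probe set, which rises as RNA is shortened, ran from 0.16 to 0.66 in WT inhibitor and from 0.10 to 0.60 in KO vehicle. In tissue samples, fewer cells of a type and less RNA per cell cannot be told apart.

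With all 11 arrays no gene differed past the threshold. Of 18193 genes 0 passed an adjusted p of 0.05 (0%; limma fitted to all 20 striatal arrays), against 1332 with an unadjusted p under 0.05 (7.32%; 781 higher in WT inhibitor, 4.29%, and 551 lower, 3.03%). The median difference over all genes was 0.0032. The groups did not overlap for 137 genes (0.753%), of which 51 were higher in WT inhibitor (0.28%) and 86 lower (0.473%). Fitted to the 11 arrays alone, 30 genes passed (0.165%), 29 of them lower in WT inhibitor. Without KO vehicle 25 the count was 68 (0.374%, 61 higher and 7 lower), and without any other single array of these groups it was 0. Of the 30 genes only 3 were also called without the 4 arrays of doubtful score, and of the 68 genes 67 were.

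Among genes with more than a clone or predicted name, the smallest p belonged to Ccn2, which codes for connective tissue growth factor, a secreted matrix protein, and which in cortex marks deep-layer neurons. Its signal was 5.98, 7.33, 7.46, 7.19, 5.58 and 6.60 in WT inhibitor 10 to 15, and 8.49, 9.43, 9.40, 8.93 and 9.31 in the KO vehicle arrays. Every WT inhibitor array lay below every KO vehicle array, and WT vehicle ran from 6.45 to 9.67, across the whole KO vehicle range and 4 of the 6 WT inhibitor arrays. The difference was -2.42 ± 0.46 (SE, n = 6 against 5, limma, adjusted p = 0.373; 95% interval -3.39 to -1.45). Its adjusted p was 0.0148 when limma was fitted to the groups compared alone and 0.0374 without KO vehicle 25. Nr4a2, an early response nuclear receptor that is also found in deep cortex, had 5.68, 7.11 and 8.11 as lowest, median and highest signal in WT inhibitor, and 9.01, 9.15, 9.62, 9.31 and 8.83 in KO vehicle. These groups did not overlap either (-2.22 ± 0.61, limma, adjusted p = 0.622), and WT vehicle ran from 6.44 to 10.18. Tbr1, a transcription factor that defines cortical glutamatergic neurons, differed by -2.23 ± 0.68, and Cplx3, a complexin, by -1.15 ± 0.36. Fitted to the groups compared alone, limma gave an adjusted p of 0.0346 for Nr4a2, 0.0348 for Tbr1 and 0.0302 for Cplx3. Of the 10 glutamatergic markers 9 were lower in WT inhibitor, with a median of -0.52 against 0.0032 over all genes. With the mean of these markers as a covariate the differences were -1.35 for Ccn2, -0.82 for Nr4a2, -0.21 for Tbr1 and -0.47 for Cplx3. Tbr1 is itself one of the 10 markers, so its smaller difference is partly built in. Only WT inhibitor 13 lay inside the KO vehicle range of this mean, so the covariate also takes out group difference. The 1 marker with a positive difference was Lmo3 (0.27 with all arrays). Without the 4 arrays it was the only marker that passed, with a rise of 0.52, and 0 of the 10 markers fell past the threshold.

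Ackr2, a decoy receptor that scavenges chemokines, had the next smallest p, at 5.23 to 5.64 in WT inhibitor (median 5.53) and 5.01 to 5.10 in KO vehicle. It was higher in every WT inhibitor array (0.44 ± 0.10, limma, adjusted p = 0.622), with WT vehicle at 5.16 to 5.83. The other Ackr2 probe sets differed by 0.03 and 0.14, and their groups overlapped. Every Ackr2 probe set averaged below the lowest array median (6.05) in both groups. Atg10, an enzyme of autophagosome formation, was also higher in every WT inhibitor array (0.32 ± 0.07). The other 9 genes of the 12 smallest p under such names all had an adjusted p of 0.622 in limma. Lower in WT inhibitor were the zinc finger gene Hivep2 (-0.40 ± 0.09), the receptor phosphatase gene Ptpru (-0.91 ± 0.21) and the collagen gene Col5a1 (-0.75 ± 0.18). So were the potassium channel gene Kcnj6 (-0.48 ± 0.12), the neurexophilin gene Nxph3 (-0.66 ± 0.16), Mup5 (-0.40 ± 0.10) and the netrin gene Ntn5 (-0.38 ± 0.09). Higher were Rnf207 (0.50 ± 0.12) and the transcription factor gene Rfx4 (0.44 ± 0.11). Fitted to the groups compared alone, limma gave an adjusted p of 0.0348 for Ackr2, Col5a1 and Mup5 and 0.0302 for Ntn5. Without KO vehicle 25 it gave 0.0173 for Rfx4, 0.0199 for Rnf207 and 0.0259 for Hivep2. Atg10, Ptpru, Kcnj6 and Nxph3 passed in neither of these fits. The groups overlapped for Hivep2, Rnf207, Col5a1, Rfx4 and Nxph3 and did not for the others. Mup5 averaged 4.58 in WT inhibitor and 4.99 in KO vehicle, and Kcnj6 5.46 and 5.95, all below the lowest array median (6.05). The other Kcnj6 probe sets differed by -0.01, -0.20, -0.10 and -0.29.

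An earlier analysis of these arrays had named 10 genes as changed in the same direction by the drug and by the knockout label, each against WT vehicle. Those comparisons share the WT vehicle arrays, which the direct difference does not set against either group. The naming itself used both groups compared here, so a small direct difference, or a shared side of WT vehicle, is no independent evidence. None of the 10 passed directly, and the interval of each says how large a difference it includes. Nnat, which codes for neuronatin, a small membrane protein, had a signal of 11.00 to 11.31 in WT inhibitor (median 11.14). In KO vehicle it had 11.38, 10.44, 11.00, 10.94 and 11.04, and all 11 arrays lay above WT vehicle (9.30 to 10.26). The direct difference was 0.19 ± 0.17 (95% interval -0.17 to 0.55), beside distances from WT vehicle of 1.43 for WT inhibitor and 1.24 for KO vehicle. Fam43a had 7.80 to 8.09 in WT inhibitor and 7.65 to 8.32 in KO vehicle, against 6.72 to 7.35 in WT vehicle. Its direct difference was 0.00 ± 0.12 (95% interval -0.25 to 0.26). Clspn, which codes for the checkpoint adaptor claspin, had 5.47 to 6.28 and 5.57 to 6.42, against 6.80 to 7.75 in WT vehicle. It differed by -0.12 ± 0.20 (95% interval -0.54 to 0.29).

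The other 7 genes had intervals that include 0 as well. Slc7a8, an amino acid transporter, differed by -0.09 ± 0.11 (95% interval -0.32 to 0.13), and Coch, the gene of cochlin, by -0.06 ± 0.14 (-0.36 to 0.23). Fst, which codes for the activin-binding protein follistatin, differed by -0.04 ± 0.10 (-0.24 to 0.16) and Gask1b by 0.11 ± 0.14 (-0.18 to 0.39). Otof, a calcium sensor of vesicle release, differed by 0.11 ± 0.09 (-0.09 to 0.31), Ptprv by 0.13 ± 0.14 (-0.15 to 0.42) and the ubiquitin ligase gene Rnf144a by 0.08 ± 0.06 (-0.04 to 0.21). None of the 10 passed without the 4 arrays either. Slc7a8 was then at -0.29 ± 0.12 (limma, adjusted p = 0.192), Nnat at 0.32 ± 0.22 and Clspn at -0.50 ± 0.23 (limma, adjusted p = 0.294). Missing the threshold does not show that drug and loss act alike on these genes.

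**Figure D2:**
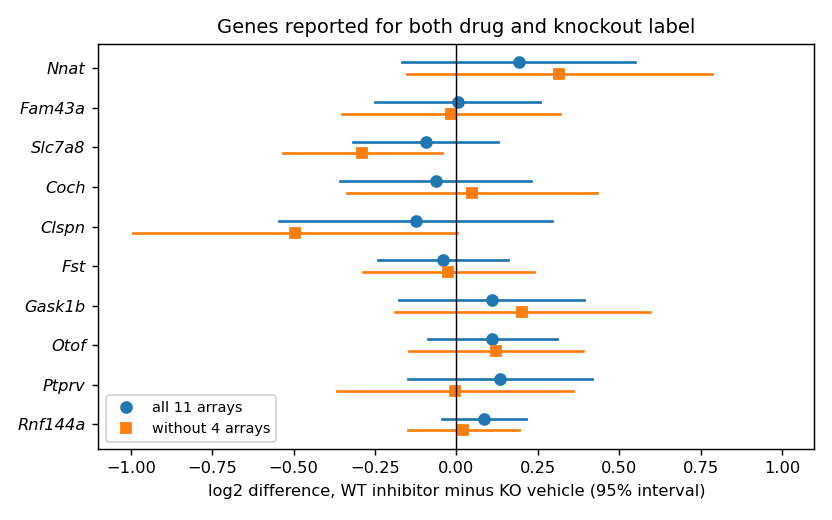
Log2 difference, WT inhibitor minus KO vehicle, of 10 genes named for both conditions by an earlier analysis, with 95% intervals; blue circles use all 11 arrays and orange squares leave out 4 arrays. With all arrays each interval includes 0, and the bounds run from -0.54 (Clspn) to 0.55 (Nnat).

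Genes named earlier for one condition gave some larger direct differences. That choice used arrays compared here, so a difference in this direction is no independent evidence. Irak3, an inhibitory kinase-like protein of innate immune signalling that had been named for the drug, had 6.38, 6.25, 6.50, 5.79, 4.83 and 5.66 in WT inhibitor 10 to 15. In KO vehicle it had 5.96, 4.78, 4.78, 4.97 and 5.23, so KO vehicle 25 lay among the WT inhibitor arrays and WT inhibitor 14 among the KO vehicle arrays. It differed by 0.76 ± 0.25 (limma, adjusted p = 0.622), and rose by 1.43 ± 0.16 (limma, adjusted p = 3.51e-05) without the 4 arrays. The endothelial factor gene Sox17 (0.47 ± 0.15), the heparan sulfation gene Hs6st2 (0.36 ± 0.13) and the phosphatase inhibitor gene Ppp1r2 (0.34 ± 0.13) had the same sign. They rose without the 4 arrays by 0.86, 0.56 and 0.66. Pde1c, a calmodulin-dependent phosphodiesterase also named for the drug, differed by 0.20 ± 0.16, and by 0.36 ± 0.21 without the 4 arrays (limma, adjusted p = 0.435). The other 4 drug genes, which had been named as falls, differed by -0.37 (Serpinb1b), -0.22 (Camkk2), -0.13 (Rasgef1c) and -0.12 (Col6a2), and none passed with or without the 4 arrays.

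Pdyn, the precursor of the opioid dynorphin in direct pathway neurons, had been named for the knockout label. Its lowest, median and highest signal was 8.42, 8.82 and 9.25 in WT inhibitor, against 8.73, 9.30, 9.79, 9.24 and 10.02 in KO vehicle. All 11 lay above WT vehicle (7.83 to 8.18), and the groups overlapped through KO vehicle 25 and WT inhibitor 14. The difference was -0.57 ± 0.18 (limma, adjusted p = 0.622), and -0.91 ± 0.18 (limma, adjusted p = 0.00603) without the 4 arrays. Leaving out KO vehicle 25 alone gave an adjusted p of 0.0494 in limma. Tnnt2, a troponin gene, was the one of the 8 knockout genes whose groups did not overlap (0.46 ± 0.16), against 0.753% of all genes. The separation was narrow, with a lowest WT inhibitor signal of 5.918 and a highest KO vehicle signal of 5.916. The other Tnnt2 probe sets differed by 0.29 and 0.04, and their groups overlapped. Zfp40, a zinc finger gene of chromosome 17 and a member of the score, rose by 0.60 ± 0.08 without the 4 arrays. The sialidase gene Neu2 rose by 0.56 ± 0.14 and the potassium channel subunit gene Kcns2 by 0.41 ± 0.08. Dusp14 (-0.29 ± 0.13), Trim17 (-0.28 ± 0.11) and Chmp1b (-0.14 ± 0.10) passed in neither fit.

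**Figure D3:**
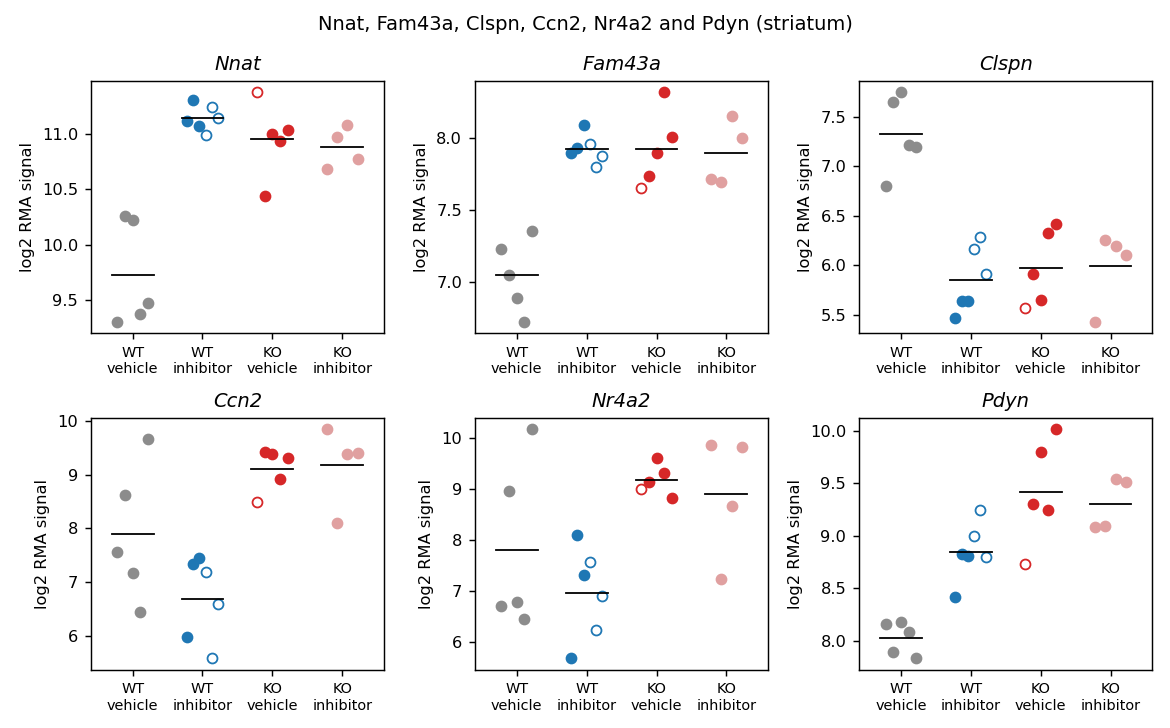
Log2 RMA signal of each striatal array (points) and group mean (bar) for Nnat, Fam43a, Clspn, Ccn2, Nr4a2 and Pdyn in the 4 labelled groups, where open circles are the 4 arrays left out in the alternative. Nnat and Fam43a lie above WT vehicle and Clspn below it in both groups compared, and Ccn2 and Nr4a2 separate these groups without overlap.

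The spread inside both groups was wide, and single arrays lay with the other group. Nts, which codes for the peptide neurotensin, had 9.94, 10.31, 10.55, 8.27, 7.32 and 9.60 in WT inhibitor 10 to 15. In KO vehicle it had 10.48 in array 25 and 5.99 to 6.70 in the others. Gpr153, an orphan receptor gene, had 9.03, 9.41, 9.18, 8.17, 6.84 and 8.35 in WT inhibitor, 9.30 in KO vehicle 25 and 6.57 to 7.08 in the others. WT inhibitor 10, 11 and 12 and KO vehicle 25 thus shared high levels of both genes, and WT inhibitor 14 was lowest in its group. Rgs4, which speeds the shut-off of G protein signals, had 12.86, 13.28, 13.21, 12.40, 10.64 and 12.30 in WT inhibitor, 13.32 in KO vehicle 25 and 10.63 to 11.07 in the others. The same arrays were high for Rgs4, and other genes gave the mirror image. Cartpt, the precursor of the CART peptides, had 5.02 to 6.00 in WT inhibitor 10, 11 and 12, 7.83 to 8.83 in WT inhibitor 13, 14 and 15, 6.12 in KO vehicle 25 and 7.96 to 9.36 in the others. Nr4a1, an early response nuclear receptor gene, had 7.74, 7.91, 8.27, 9.49, 10.00 and 10.37 in WT inhibitor, 8.11 in KO vehicle 25 and 10.33 to 10.86 in the others. Vgf, a neurosecretory precursor, had 9.02, 8.54, 8.82, 10.66, 10.77 and 10.35 in WT inhibitor, 8.48 in KO vehicle 25 and 10.77 to 11.29 in the others. For these 3 genes WT inhibitor 10, 11 and 12 and KO vehicle 25 were low and the other 7 arrays higher. Over all genes, the striatal array nearest to KO vehicle 25 was WT inhibitor 11 (r = 0.68 across genes, each centred on its mean; genes are not independent replicates), and the reverse held too.

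**Figure D4:**
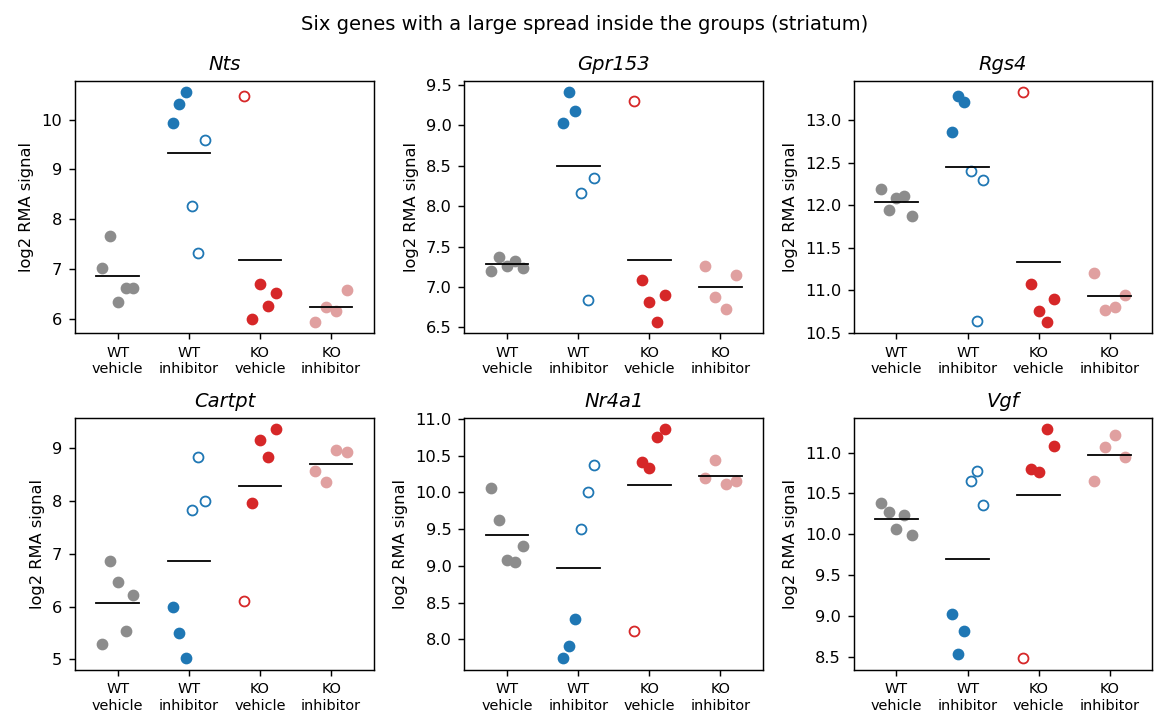
Log2 RMA signal of each striatal array (points) and group mean (bar) for Nts, Gpr153, Rgs4, Cartpt, Nr4a1 and Vgf in the 4 labelled groups, where open circles are the 4 arrays left out in the alternative. Filled WT inhibitor points and the open KO vehicle point lie together in each panel, and the filled KO vehicle points lie at the other end beside KO inhibitor.

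Without the 4 arrays (WT inhibitor 10, 11 and 12 against KO vehicle 26, 28, 29 and 30) 1061 genes passed, 5.83% of those tested: 738 were higher in WT inhibitor (4.06%) and 323 lower (1.78%). When the mean of the glutamatergic markers entered this fit as a covariate, 2206 genes passed, and 712 were called both with and without it. The kept arrays of the groups do not overlap on that mean (6.47 to 6.85 in WT inhibitor, 7.69 to 7.93 in KO vehicle). These counts therefore cannot tell marker level and group difference apart. Leaving out only KO vehicle 25 and WT inhibitor 14, whose scores lie more than 0.75 of the way to the other genotype, gave 474 (2.61%; 343 higher and 131 lower). Leaving out each of the 7 arrays in turn gave between 575 (without WT inhibitor 11) and 859 genes, with 585 without WT inhibitor 12. KO vehicle 25, which this alternative leaves out, is the array most like WT inhibitor 11, which it keeps, so these counts are no independent evidence of a difference between drug and loss. Chromosome 17 had 54 of 834 genes among the calls (6.47%).

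The 12 largest rises without the 4 arrays were led by Nts at 3.90 ± 0.26 (14.9-fold, limma, adjusted p = 1.43e-07), against 2.14 ± 0.65 with all arrays. The sorting nexin gene Snx31 rose by 2.56, Gpr153 by 2.37, Abi3bp by 2.35 and Rgs4 by 2.28 (4.85-fold). The other 2 Rgs4 probe sets rose by 2.53 and 2.72. Then came the transcription factor gene Onecut2 (2.16), Strip2 (2.12), Lgi2 (1.99), Klhl14 (1.98), the small GTPase gene Rerg (1.96), the activin-type receptor gene Acvr1c (1.91) and Dpm3 (1.89). The 12 largest falls were led by Cartpt at -3.32 ± 0.36 (limma, adjusted p = 3.23e-05), against -1.42 ± 0.62 with all arrays. The calcium release channel gene Ryr1 (-3.15), Nr4a1 (-2.61), Car10 (-2.47), Ccn2 (-2.34), Vgf (-2.19) and the heat shock gene Hspa1b (-1.87) came next. The ETS factor gene Etv5 fell by 1.78, Spred3 by 1.76, the calcium sensor gene Hpcal4 by 1.72, the orphan receptor gene Gpr101 by 1.66 and the angiotensin receptor gene Agtr1a by 1.59. Another 63 called genes had clone or predicted names and were left unnamed.

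Distances from WT vehicle in the same fit place these genes differently, and both distances share the WT vehicle arrays. For Nts, WT inhibitor lay at 3.41 and KO vehicle at -0.49 from WT vehicle, and for Gpr153 at 1.93 and -0.44. For Rgs4 the distances were 1.08 and -1.20, for Nr4a1 -1.44 and 1.17, and for Vgf -1.39 and 0.79, so the groups lay on either side of WT vehicle. Abi3bp (0.21 and -2.14) and Acvr1c (0.38 and -1.54) lay farther from WT vehicle in KO vehicle than in WT inhibitor. So did Cartpt (-0.57 and 2.75), Gpr101 (0.20 and 1.86) and Agtr1a (-0.17 and 1.43). Snx31 (2.53 and -0.03) and Lgi2 (2.11 and 0.12) lay farther from it in WT inhibitor.

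Because CREB answers to cAMP, the 250 bases before the start sites of 4 of these genes, and of the Nr4a1 relative Nr4a3, are shown. These genes were picked by name and not by a rule, and each holds a match. They therefore do not stand for the rises and falls, whose counts follow the sequences. Sequences and coordinates are RefSeq's (GRCm38.p6): Cartpt at chr13:99900684-99900933 (minus strand), Nr4a1 at chr15:101266596-101266845 (plus), Nr4a3 at chr4:48045055-48045304 (plus), Nts at chr10:102490419-102490668 (minus) and Rgs4 at chr1:169747643-169747892 (minus). Capitals mark the cAMP response element TGACGTCA, its half-site TGACG or CGTCA, and the AP-1 site TGAGTCA or TGACTCA, searched on both strands. A full element contains overlapping half-sites.
Cartpt: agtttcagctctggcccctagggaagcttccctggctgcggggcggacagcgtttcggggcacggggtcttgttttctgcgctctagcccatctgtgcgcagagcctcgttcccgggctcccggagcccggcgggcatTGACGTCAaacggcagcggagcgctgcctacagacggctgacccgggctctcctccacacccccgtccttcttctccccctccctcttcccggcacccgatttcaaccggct
Nr4a1: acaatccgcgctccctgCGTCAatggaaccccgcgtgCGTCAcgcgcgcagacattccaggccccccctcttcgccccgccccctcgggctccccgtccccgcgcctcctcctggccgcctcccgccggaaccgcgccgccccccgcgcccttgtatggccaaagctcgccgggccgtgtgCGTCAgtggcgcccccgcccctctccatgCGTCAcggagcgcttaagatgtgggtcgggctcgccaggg
Nr4a3: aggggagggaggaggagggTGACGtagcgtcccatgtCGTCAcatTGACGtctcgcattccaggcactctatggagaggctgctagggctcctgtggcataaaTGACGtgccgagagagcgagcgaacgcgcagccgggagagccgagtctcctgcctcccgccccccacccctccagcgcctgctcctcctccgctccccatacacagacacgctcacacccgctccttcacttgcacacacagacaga
Nts: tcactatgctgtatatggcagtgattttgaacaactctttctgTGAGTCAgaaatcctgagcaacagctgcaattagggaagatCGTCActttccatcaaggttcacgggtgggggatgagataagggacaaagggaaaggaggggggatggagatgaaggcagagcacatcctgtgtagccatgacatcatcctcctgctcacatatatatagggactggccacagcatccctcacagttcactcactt
Rgs4: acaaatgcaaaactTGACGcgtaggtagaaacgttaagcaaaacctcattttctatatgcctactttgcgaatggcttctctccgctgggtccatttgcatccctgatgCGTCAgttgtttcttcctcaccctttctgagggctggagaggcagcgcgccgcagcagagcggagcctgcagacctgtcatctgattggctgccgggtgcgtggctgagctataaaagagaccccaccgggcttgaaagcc
Cartpt holds 1 full element, Nr4a1 and Nr4a3 hold 4 half-sites each, Rgs4 holds 2, and Nts holds 1 half-site and 1 AP-1 site. In windows of 250 bases the full element occurred for 1.77% of 27025 genes, the half-site for 19.8% and the AP-1 site for 5.16%. Of the 12 rises 7 had an entry, and 2 of those held a half-site (Nts and Rgs4). Of the 12 falls 9 had an entry, and 4 held a half-site (Cartpt, Nr4a1, Car10 and Gpr101). A match is a run of letters in a window, not a site shown to be used.

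Early response transcription factors, which follow neuronal activity, cAMP and calcium, were mostly lower in WT inhibitor. With all arrays 0 of 25 passed (0%), 20 had a negative difference and the median was -0.22, against 0.0032 over all genes. Without the 4 arrays 8 fell (1.78% of all genes did), 1 rose (4.06%) and 16 did not pass, with a median of -0.16. Beside Nr4a1, Egr1 fell by 1.26 (limma, adjusted p = 7.65e-06), Egr2 by 1.33 and Nr4a3 by 1.19 (limma, adjusted p = 0.0106). With all arrays these differed by -0.61 ± 0.22, -0.55 ± 0.32 and -0.80 ± 0.25. The antiproliferative gene Btg1 was the one that rose (0.52 ± 0.10).

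Early response effectors, the secreted, synaptic and enzymatic products of such programmes, went both ways. Of 18 genes 0 passed with all arrays, and without the 4 arrays 4 rose (4.06% of all genes did), 4 fell (1.78%) and 10 did not pass. Inhba, which codes for the activin beta-A subunit, rose by 1.50 ± 0.12 (limma, adjusted p = 1.24e-06; 0.76 ± 0.27 with all arrays), while its other, dimmer probe set differed by -0.01. The stress-response genes Gadd45b and Gadd45g rose by 1.04 and 0.97. Arc, a synaptic immediate early gene, fell by 1.34 and the scaffold gene Homer1 by 0.44. In the activin pathway 4 of 15 genes rose and 0 fell: Acvr1c, Inhba and the type I receptor genes Acvr1 (0.57 ± 0.09) and Tgfbr1 (0.41 ± 0.09). The median of that list was -0.01. Of 16 genes of the CREB family and its feedback 1 rose and 2 fell. The coactivator gene Ppargc1a rose by 0.93, while the kinase gene Sik2 (-0.68) and the phosphodiesterase gene Pde4d (-0.51 ± 0.12) fell. Crem, whose inducible form represses CREB targets, differed by -0.69 ± 0.23 (limma, adjusted p = 0.101). Another Crem probe set of similar brightness differed by -0.75 (limma over all probe sets, adjusted p = 0.0127), and dimmer ones by -0.07.

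Feedback regulators of the ERK kinase pathway, genes that ERK signalling induces, were mostly lower in WT inhibitor. Of 17 such genes 15 were negative with all arrays (median -0.25), 0 passed, and 3 had an unadjusted p under 0.05 (3.03% of all genes were lower at this level). Without the 4 arrays 7 fell (1.78% of all genes did), 0 rose (4.06%) and 10 did not pass (median -0.48). Etv5 had 7.88, 7.78, 7.93, 8.83, 9.43 and 8.87 in WT inhibitor 10 to 15, 8.19 in KO vehicle 25 and 9.46 to 9.88 in the others. It differed by -0.90 ± 0.30 with all arrays. The Spred genes, which hold back activation of Raf, fell as well without the 4 arrays: Spred3 by 1.76, Spred1 by 0.93 and Spred2 by 0.91. Dusp6, a phosphatase that inactivates ERK, fell by 1.34 (limma, adjusted p = 0.000632). The mean of the list lay between 7.75 and 7.88 in WT inhibitor 10, 11 and 12 and KO vehicle 25, and between 8.15 and 8.58 in the other 7 arrays.

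Neuropeptide and processing genes split by member. Of 22 genes 0 passed with all arrays (median -0.12), and without the 4 arrays 2 rose (4.06% of all genes did) and 6 fell (1.78%; median -0.26). Nts rose, and Cartpt, Vgf and Pdyn fell, as given above. Chgb, a granin of dense-core vesicles, fell by 0.78 (limma, adjusted p = 0.00392) and Pcsk1, which cleaves prohormones, by 0.77. With all arrays Chgb differed by -0.43 ± 0.15 and Pcsk1 by -0.42 ± 0.16. Among interneuron and cholinergic markers 0 of 15 passed in either fit, and those with the smallest p with all arrays were Cort (-0.18 ± 0.08) and Npy (-0.20 ± 0.09).

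In the lists drawn up for genes that make, degrade or answer to cyclic nucleotides, few members passed without the 4 arrays, where 4.06% of all genes rose and 1.78% fell. Of 17 genes listed under other phosphodiesterase names, not all of which need degrade cyclic nucleotides, 2 rose and 1 fell. Pde2a, which cGMP stimulates, rose by 0.59 ± 0.11 (limma, adjusted p = 0.00359), Pde6d by 0.30, and Pde4d was the fall. Pde6d missed the threshold when limma was run over all probe sets (adjusted p = 0.0663). Pde1a, a calmodulin-dependent member, differed by -1.11 ± 0.44 with all arrays and by 0.15 once the glutamatergic marker mean was a covariate. Of 21 adenylyl cyclase and G protein genes 2 rose and 1 fell. These were the G protein chaperone gene Ric8b (0.67 ± 0.12), the cyclase gene Adcy3 (0.46 ± 0.09) and the inhibitory subunit gene Gnaz (-0.34 ± 0.08). Of 24 genes of protein kinases A and G and of phosphatase inhibitors 5 rose and 0 fell. The catalytic subunit gene Prkacb rose by 0.48 and Gucy1a1, a subunit of the nitric oxide receptor that makes cGMP, by 0.85. The others were Ppp1r2 (0.66), the phosphatase inhibitor gene Arpp19 (0.53) and the kinase inhibitor gene Pkia (0.37 ± 0.08). Pkia had the smallest p of that list with all arrays (0.26 ± 0.08, limma, adjusted p = 0.622). Of 18 calcium/calmodulin kinase genes 2 rose, Camk2b (0.45 ± 0.11) and Camk1d (0.28 ± 0.07).

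Genes that mark striatal projection neurons had mostly positive differences. With all arrays 22 of 25 shared markers were positive (median 0.22), 0 passed, and 6 had an unadjusted p under 0.05 (4.29% of all genes were higher at this level). With the mean of the glutamatergic markers as a covariate the median was -0.07. On that mean every WT inhibitor array except 13 lay below every KO vehicle array. This fit therefore cannot tell marker level and group difference apart. Without the 4 arrays 4 rose (4.06% of all genes did), 0 fell and 21 did not pass. They were Strip2, the orphan receptor gene Gpr149 (1.13 ± 0.26), the tryptophan-degrading Ido1 (0.84 ± 0.18) and the actin cross-linker gene Actn2 (0.82 ± 0.21). Of 10 direct pathway genes Sfxn1 rose by 0.54 and Pdyn fell, and of 7 indirect pathway genes Plxdc1 fell by 0.94. Slc32a1, the vesicular GABA transporter gene, rose by 0.52 ± 0.12, the single call among 7 genes of GABA synthesis, transport and breakdown. Gad1, which makes GABA, differed by 0.18 ± 0.06 with all arrays and 0.25 ± 0.08 without the 4 (limma, adjusted p = 0.0821).

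Ion channel, receptor and release genes were called in both directions without the 4 arrays, where 4.06% of all genes rose and 1.78% fell. Of 32 potassium and HCN channel genes 6 rose and 1 fell. The inward rectifier gene Kcnj4 rose by 1.08 (limma, adjusted p = 0.000218), the channel partner gene Kcnip2 by 0.81 and Kcna1 by 0.69, while Kcna2 fell by 0.79. Of 12 RGS genes Rgs4 rose, and Rgs14 (-1.16 ± 0.13), Rgs10 (-0.91 ± 0.13) and Rgs2 (-0.67 ± 0.16) fell. Rgs9, the striatal member, differed by 0.32 ± 0.16 with all arrays. Of 30 glutamate and GABA receptor genes the kainate receptor gene Grik5 rose by 1.02 ± 0.10 (limma, adjusted p = 7.92e-06) and the AMPA receptor gene Gria3 fell by 0.41, a share of calls near that of all genes (5.83%). Of 30 vesicle release genes Syn3 (0.74) and Sv2c (0.75) rose and the priming factor gene Unc13a fell by 0.62.

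Of 19 clock genes 0 passed with all arrays (median -0.02). In the fit without the 4 arrays 4 rose (4.06% of all genes did), 1 fell (1.78%) and 14 did not pass. Ciart, a repressor of the clock, rose by 1.52 ± 0.12 (limma, adjusted p = 1.6e-06). The output factor genes Dbp (0.68) and Tef (0.48) and the period gene Per3 (0.56) rose, and Arntl, which codes for the BMAL1 activator, fell by 0.92 (limma, adjusted p = 8.32e-05). With all arrays Ciart differed by 0.65 ± 0.30 and Arntl by -0.41 ± 0.18. The hour of dissection is unknown here.

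Other cell types and housekeeping lists were set beside these. Of 15 endothelial and pericyte genes 14 were positive with all arrays (median 0.21) and 0 passed, and without the 4 arrays 9 rose (4.06% of all genes did; median 0.53). Sox17, the pericyte gene Rgs5 (0.82 ± 0.10), the junction gene Esam (0.57), the VEGF receptor gene Kdr (0.57) and the efflux pump gene Abcb1a (0.47) had the smallest p. The list averaged 8.27, 8.29 and 8.32 in WT inhibitor 10, 11 and 12, 8.22 in KO vehicle 25, and 7.67 to 7.94 in the other 7 arrays. Of 71 nuclear genes of oxidative phosphorylation 62 were positive with all arrays (median 0.06), and 11 rose without the 4 arrays (against the same 4.06%; median 0.18), with the smallest p for Cox7c (0.72 ± 0.10). Of 20 heat shock and ER chaperone genes 19 were negative with all arrays (median -0.13), and Hspa1b was the one that passed without the 4 arrays. Among astrocyte markers 2 of 12 rose, Slc4a4 by 0.62 and the neurotensin receptor gene Ntsr2 by 0.44. Of 12 fibroblast and matrix genes the collagen gene Col6a1 rose (0.74 ± 0.17; 0.53 ± 0.15 with all arrays). Of 17 cholesterol synthesis genes Mvd (0.67) and Dhcr7 (0.66) rose. Of 27 cytosolic ribosomal protein genes only Rps2 rose (0.23), a share near that of all genes (4.06%). Of 14 glucocorticoid-responsive genes Cdkn1a (0.79), on chromosome 17, and Ddit4 (0.37) rose. Each of these calls was made without the 4 arrays. When limma was run over all probe sets, Rps2 (adjusted p = 0.0599), Ddit4 (0.0526) and Hspa1b (0.0659) missed the threshold. No marker of microglia (11), oligodendrocytes (13), choroid plexus (11), thalamus (9) or hypothalamus (5) passed in either fit. The part of cell makeup in the other results was not tested.

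**Figure D5:**
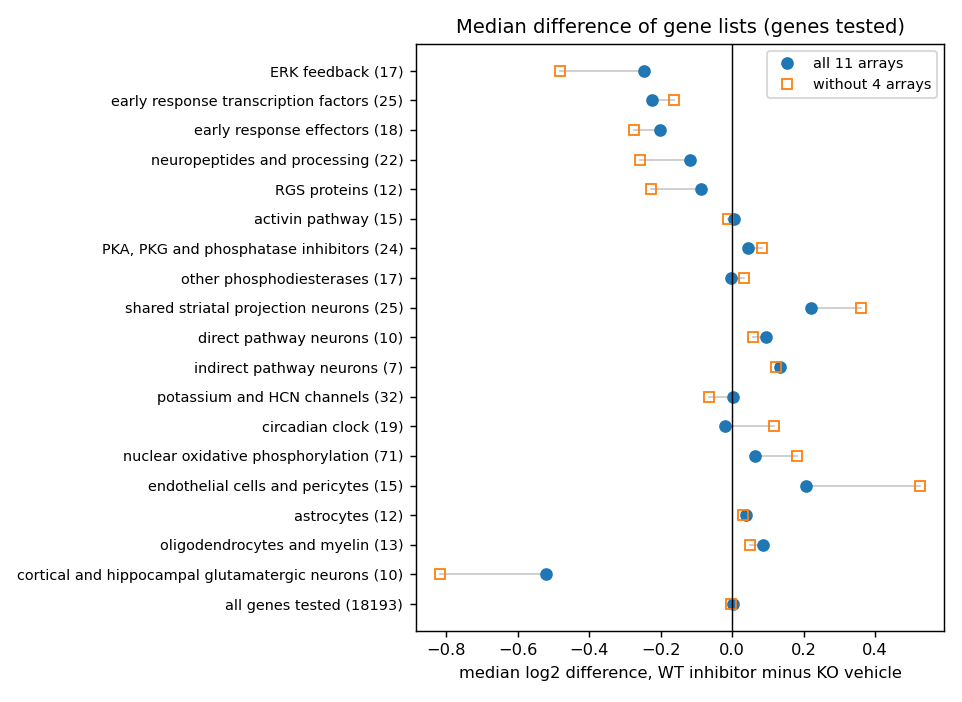
Median log2 difference, WT inhibitor minus KO vehicle, of gene lists with all 11 arrays (blue dots) and without 4 arrays (open squares). ERK feedback genes lie at -0.25 and -0.48, glutamatergic markers at -0.52 and -0.82, and vascular genes at 0.21 and 0.53, against 0.0032 over all genes. The only glutamatergic marker that passed without 4 arrays was Lmo3, which rose.

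The same contrast in hippocampus held 6 WT inhibitor and 5 KO vehicle arrays. With all of them 0 of 18193 genes passed (0%) and 852 had an unadjusted p under 0.05 (4.68%). The chromosome 17 score placed KO vehicle 25 and 26 (-0.08 and 0.00) and WT inhibitor 12 and 14 (1.01 and 0.74) on the other genotype's side. Without these 4 hippocampal arrays 9 genes passed (0.0495%; 4 higher, 0.022%, and 5 lower, 0.0275%), all of them on chromosome 17, and 4 of them (Zfp758, Zfp40, Zfp994 and Zfp983) belong to the hippocampal score. Tcte2, Ccr6 and Fndc1, like Zfp40, belong to the striatal score, whose genes were chosen on hippocampal values. So 7 of the 9 were used for a score, and only Nubp2 and Zfp945 were not. Of the 9, 6 were also among the striatal calls made without 4 arrays. With all arrays the hippocampal difference was 0.05 for Nts, -0.07 for Rgs4, 0.15 for Gpr153, 0.12 for Nr4a1, -0.18 for Cartpt and -0.02 for Vgf.

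Whether the difference was unlike between the regions was tested directly over all 42 arrays. The fit treats arrays of equal number in the 2 regions as independent, and whether they share a mouse was not tested. With all arrays 0 genes passed (0%; 1154 with an unadjusted p under 0.05, 6.34%), and the smallest adjusted p was that of Rfx4 (0.68, limma, adjusted p = 0.125). Without KO vehicle 25 of striatum 88 passed. Without the 4 arrays of doubtful score in each region 669 passed (3.68%; 494 with a higher difference in striatum, 2.72%, and 175 with a lower one, 0.962%). Among them were Snx31 (2.47), Nts (3.84), Rgs4 (2.24), Hpcal4 (-1.72), Vgf (-2.12) and Nr4a1 (-2.86). These genes were named as the largest changes of the striatal fit without the 4 arrays, and the region contrast uses the same striatal arrays. Their passing here is therefore no independent evidence. For Pdyn the region difference was then -1.15 (limma, adjusted p = 0.00349), and for Nnat 0.78 (limma, adjusted p = 0.182).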

How the data were processed

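Mouse striatum and hippocampus were measured on 42 Affymetrix arrays. The authors deposited log2 values after RMA normalization, per the submitters' processing notes, for 45101 probe sets. Array medians lie between 6.05 and 6.12; the number of arrays limits the precision. Of the probe sets 34945 have 1 gene symbol in the platform annotation, 932 have several and 9160 none, beside 64 controls; 34741 matched RefSeq and 204 kept their symbol. Each of 18193 genes took its probe set of highest mean over all arrays. No pair of arrays held identical values (highest correlation 0.997).

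Samples were grouped by title. Differences came from lmFit and eBayes of limma (version 3.58.1, R 4.3.3), fitted to all 20 striatal arrays (16 residual degrees of freedom), with Benjamini-Hochberg adjustment over all genes at 0.05; the code was tested on simulated data. Named genes were Pde10a, the 12 largest rises and falls past the threshold, up to 5 members per list with the smallest p, and all members of 3 lists of an earlier analysis. As no gene passed with all arrays, the 12 genes of smallest p and the rises and falls without 4 arrays were named after values were seen. Members and the 37 lists (654 genes tested) were chosen with earlier results of these data known. Alternatives were other fits, covariates, filters, probe-set rules and left-out arrays.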

Additional observations from a re-analysis of the deposited data

Results flagged for a closer look

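In 136 sets of values (68 genes and measures, each in WT inhibitor and KO vehicle), the highest or lowest array stood apart from the rest by Dixon's criterion 26 times; chance flags about 1 set in 20. KO vehicle 25 accounts for 21 of them, WT inhibitor 13 and 14 for 2 each and WT inhibitor 11 for 1. Most of the genes were named from a fit that leaves KO vehicle 25 out, so its count is not independent of that choice.

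KO vehicle 25 was the high array of its group for Rfx4 (8.058), Nts (10.477), Snx31 (7.316), Gpr153 (9.298), Abi3bp (6.496), Rgs4 (13.323) and Klhl14 (5.787). It was also high for Rerg (8.117), Acvr1c (9.648), Ppp1r2 (12.543), Zfp40 (7.487), Kcns2 (8.97) and the mean of the vascular markers (8.222). It was the low array for Ryr1 (6.424), Nr4a1 (8.113), Vgf (8.483), Etv5 (8.187), Spred3 (5.934), Hpcal4 (11.059), Gpr101 (4.252) and the chromosome 17 score (0.053).

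In WT inhibitor, array 13 was high for Ntn5 (6.775) and for the mean of the glutamatergic markers (7.682). Array 14 was low for Rgs4 (10.642) and Strip2 (8.952). Array 11 was high for the mean of the choroid plexus markers (9.082).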

How the results depend on the processing

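The striatal count of 0 became 30 with only the groups compared in the fit (1 higher and 29 lower), 1061 without the 4 arrays of doubtful score and 474 without the 2 of opposite score; leaving out single arrays gave 0 to 68, with 68 without KO vehicle 25. It was 0 under the other probe-set rules, filter, weights, priors, normalization and covariates run in limma, where 956 to 2765 genes had an unadjusted p under 0.05. The count without the 4 arrays became 2206 with the glutamatergic marker covariate (712 shared), on which the kept groups do not overlap. It became 575 to 859 when single arrays were left out. The hippocampal count of 0 became 9 without its doubtful arrays. The region count of 0 became 669 without doubtful arrays, 4 with the replicate block as a fixed term and 0 with it as a random one (consensus correlation 0.004), and 0 to 88 without single arrays. No paired analysis of the striatal groups was possible because they share no replicate number. Of 11 pairs of equal number in the 2 regions 2 had a correlation over 0.1 (-0.382 to 0.185). Such correlations cannot show whether equal numbers are the same mouse. In striatum and hippocampus the chromosome 17 score was 0.05 and -0.08 for KO vehicle 25, and 0.79 and 0.74 for WT inhibitor 14. It was 0.96 and 0.00 for KO vehicle 26, and 0.14 and 1.01 for WT inhibitor 12. WT inhibitor 13 (0.52 and 0.18) and 15 (0.53 and -0.09) also changed side of the midpoint. Whether equal numbers share a mouse was not tested.

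Of 1824 gene values under other settings 19 reversed, none of them past the threshold, and 7 of 1848 with single arrays left out. With the glutamatergic covariate Pde10a was at -0.11, Slc7a8 0.0064, Ptprv -0.0441, Rnf144a -0.0015, Pde1c -0.0191, Col6a2 0.0133, Nrn1 0.0457, Pde4d 0.0573, Pde1a 0.15, Gng7 -0.0134, Camk2g 0.11, Mog -0.0227 and Rgs9 -0.0411. Without the doubtful arrays Pde10a was at -0.0159, Fam43a -0.0166, Coch 0.0489 and Ptprv -0.0030; without the opposite ones Fam43a was at -0.0376, and without the highest Gapdh differences Fst was at 0.0137. Without single arrays Fam43a ran from -0.0637 to 0.1033 and Coch from -0.1318 to 0.0194. The cause was not tested.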
